A study of Rattus norvegicus with 9 samples.

Results

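Annexins and S100 proteins are 2 families of calcium-binding proteins, and 10 of their genes were examined here in rat liver: the annexins Anxa1, Anxa2, Anxa3, Anxa4, Anxa5 and Anxa13 and the S100 genes S100a4, S100a6, S100a10 and S100a11. They were chosen by gene symbol among the 32883 genes of the count table, and each symbol matched 1 row. RNA was sequenced from the livers of 9 male Sprague-Dawley rats, 3 in each of 3 groups. The normal control rats (N1, N3 and N12) received a normal diet. The DEN model rats (M13, M17 and M24) were on a schedule of weekly injections in the abdomen with 0.01% diethylnitrosamine (DEN) over 16 weeks. DEN is a carcinogen that is activated in hepatocytes and leads to fibrosis and liver tumours. The study took rats at several weeks of the schedule, so these rats may not have received all of it. The PZH administration rats (G27, G28 and G42) were on the same DEN schedule and received Pien-Tze-Huang (PZH), a traditional Chinese medicine given here against the DEN-induced disease. The animals' age, the week in which these livers were taken and the PZH dose of the 3 rats were not given in the sources used here, and since the M rats carry PZH as their treatment tag like the G rats, rats were grouped by the letter of their names. The piece of liver used for RNA, with or without tumour, was also not given.

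Annexins bind negatively charged phospholipids when calcium is present, and so settle on membranes, where they take part in vesicle traffic, membrane repair and the anchoring of the actin cytoskeleton. S100 proteins are small dimers with EF-hand calcium sites that bind other proteins, annexins among them: S100A10 forms a complex with annexin A2 at the cell surface, S100A11 binds annexin A1 and S100A6 binds annexin A2. In healthy liver most of these genes are known more from bile duct cells, stellate cells and leukocytes than from hepatocytes.

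The libraries held between 14922973 and 27161496 counts, with G27 the deepest. Values are given as CPM, counts scaled to library size with TMM factors, which corrects for RNA composition, and 3 counts corresponded to between 0.125 and 0.252 CPM. The TMM factors differed between the groups, from 0.731 to 0.799 in normal, from 1.21 to 1.58 in DEN and from 0.863 to 0.941 in PZH rats. Scaling by library totals instead moved the median change over all genes, on the log2 scale, by 0.87 for DEN against normal, by -0.67 for PZH against DEN and by 0.23 for PZH against normal, and the changes below are relative to the TMM scale. The labelled tissue was borne out by the 10 hepatocyte markers found, whose summed level was 117401 to 124331 CPM in normal, 18022 to 41135 CPM in DEN and 86606 to 119730 CPM in PZH rats. In bulk liver, fewer cells of a type and less RNA per cell cannot be told apart.

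The first comparison asked how the families changed in DEN livers. All 10 members rose in DEN against normal rats by the quasi-likelihood test of edgeR, with p-values adjusted by the Benjamini-Hochberg method across 14255 genes and a threshold of 0.05. The background was high: by that rule 45.8% of all genes were called, 25.3% higher and 20.5% lower. By the study's stricter rule, which asks for more than 2 on the log2 scale in either direction and an unadjusted P below 0.001, 8 of the 10 rose, against 8.81% of all genes, and Anxa3 and Anxa4 did not reach it. The members had a median log2 fold change of 3.86, from 1.46 to 5.36, while that of all genes was 0.03. For all 10 members the lowest DEN rat lay above the highest normal rat, which held for 31.3% of all genes.

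Giving PZH to DEN rats went with lower levels. Of the 10 members 9 fell in PZH against DEN rats by the same edgeR test, where 10.3% of the 14272 genes tested fell and 8.72% rose, and Anxa4 did not pass. By the study's rule 3 fell, namely Anxa2, Anxa13 and S100a11, against 1.35% of all genes. The median log2 fold change was -1.78, from -2.79 to -0.86, with 0.01 for all genes. In all 10 the highest PZH rat lay below the lowest DEN rat, as in 22.5% of all genes. Both comparisons share the 3 DEN rats. The number of calls rested on single rats: without M13 only 4 members passed (Anxa1, Anxa2, Anxa13 and S100a11), when 1.87% of all genes were called in either direction in place of 19.1%.

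Levels in PZH rats stayed above normal for most members. Against normal rats 7 of the 10 were higher by the edgeR test, against 4.07% of 13348 genes (1.15% were lower), and 5 by the study's rule (Anxa1, Anxa2, Anxa5, Anxa13 and S100a6), against 2.16%. The same 7 did not overlap between the groups, as did 13.6% of all genes. Anxa3, Anxa4 and S100a4 did not pass. Without N1, 3 members passed (Anxa1, Anxa2 and S100a6), with 1.51% of all genes called in either direction in place of 5.21%.

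**Figure D1:**
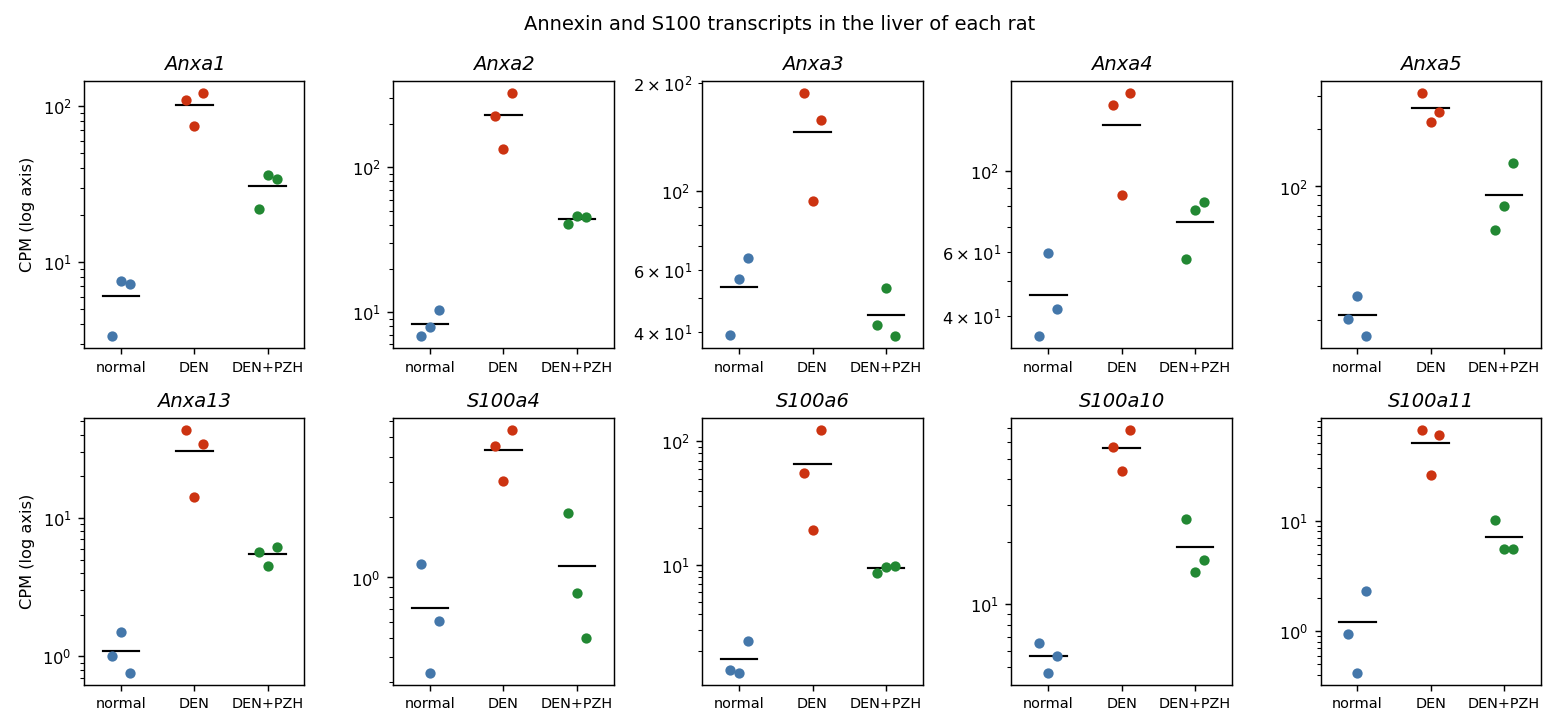
CPM of the 10 members on logarithmic vertical axes, with 1 point per rat and a line at the group mean, for the normal, DEN and DEN with PZH groups of 3 rats each. Every DEN point lies above every point of the other groups in each panel, with the smallest step between M17 and the highest PZH rat in Anxa4, where the ratio is 1.04.

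**Figure D2:**
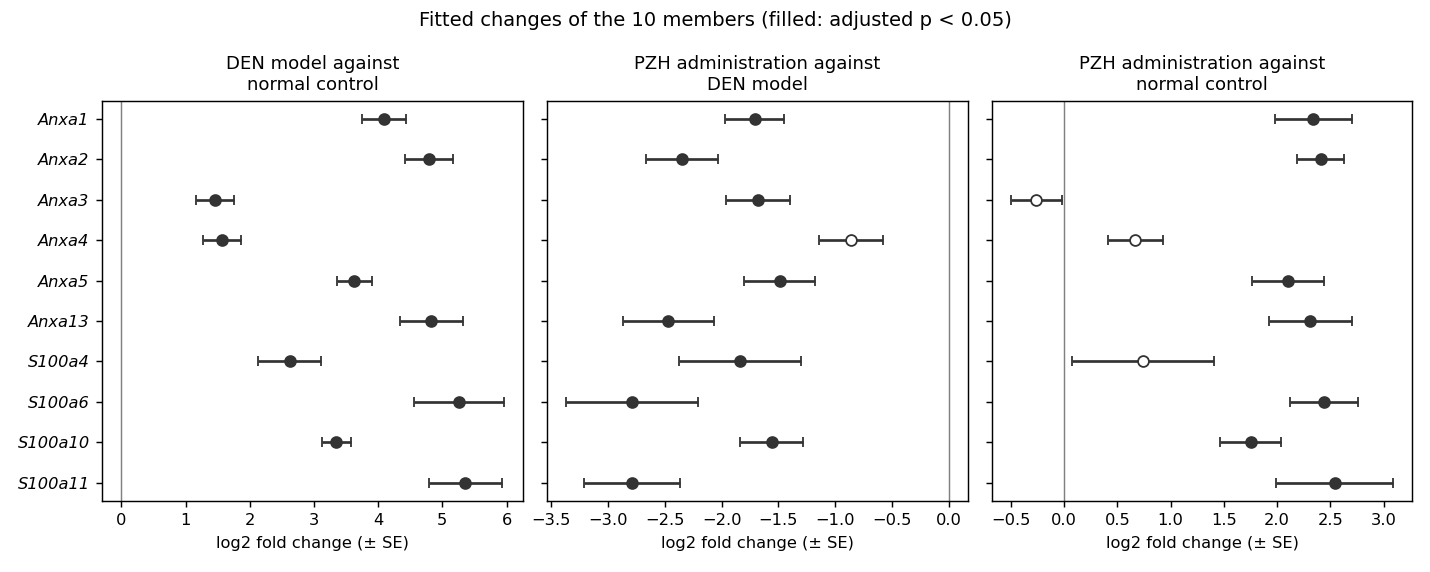
Fitted log2 fold change with its standard error (horizontal axis) of each member in the 3 comparisons, with filled points for an adjusted p below 0.05. All 10 points are filled in DEN against normal, 9 in PZH against DEN and 7 in PZH against normal.

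Among the annexins, Anxa2 (chr8:75687100-75723594 in the deposited table, whose genome build is not named) was the member with the widest step between groups. Annexin A2 is the partner of S100A10 and, at the cell surface, a docking site for plasminogen and its activator. Its level was 6.87, 7.89 and 10.3 CPM in the normal rats N1, N3 and N12, 226, 134 and 325 CPM in the DEN rats M13, M17 and M24, and 40.6, 46.2 and 45.8 CPM in the PZH rats G27, G28 and G42. The group means were 8.35 ± 1.76, 229 ± 95.3 and 44.2 ± 3.09 CPM (SD, n = 3). The 3 groups did not overlap: the lowest DEN rat was 2.91 times the highest PZH rat, the largest such ratio among the members, and the lowest PZH rat was 3.95 times the highest normal rat. The log2 fold change was 4.79 ± 0.38 (SE) for DEN against normal (adjusted p = 0.000109, edgeR), -2.35 ± 0.32 for PZH against DEN (adjusted p = 0.00893) and 2.41 ± 0.22 for PZH against normal (adjusted p = 0.00218). PZH rats were close to each other, with a coefficient of variation of 6.99%, and DEN rats were not, with 41.7%.

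Anxa1 (chr1:237893966-237910012), whose protein is induced by glucocorticoids and signals through formyl peptide receptors to end inflammation, had a like pattern. It was measured at 3.36, 7.55 and 7.25 CPM in normal, 109.7, 74.6 and 121 CPM in DEN and 21.8, 36.4 and 34.2 CPM in PZH rats. The groups were again apart, with a log2 fold change of 4.09 ± 0.35 for DEN against normal (adjusted p = 0.00014, edgeR), -1.71 ± 0.26 for PZH against DEN (adjusted p = 0.0101) and 2.34 ± 0.36 for PZH against normal (adjusted p = 0.00959). Of its receptors, 5 formyl peptide receptor genes were in the table and none had enough counts to be tested.

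Anxa5 (chr2:123162461-123193130) codes for the protein used as a probe for phosphatidylserine on dying cells. Its level was 20.2, 26.6 and 16.4 CPM in normal, 309, 217 and 245 CPM in DEN and 59.2, 78.9 and 132 CPM in PZH rats. Here the DEN rats were the more even group, with a coefficient of variation of 18.3% against 42% in PZH rats, where G42 was 2.24 times G27. Anxa5 rose by 3.63 ± 0.27 on the log2 scale in DEN rats (adjusted p = 8.43e-05, edgeR) and its log2 fold change was -1.49 ± 0.31 for PZH against DEN (adjusted p = 0.0187) and 2.1 ± 0.34 for PZH against normal (adjusted p = 0.0108). The call for PZH against DEN was lost without M13, M24 or G28 (adjusted p from 0.0533 to 0.0754), and that for PZH against normal without N1 (adjusted p = 0.0587).

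Anxa13 (chr7:98217642-98270110), known from intestinal and kidney epithelium and taken as the founder gene of the vertebrate annexins, had the lowest FPKM of the members in normal liver. It stood at 1.01, 1.51 and 0.763 CPM in normal, 43.4, 14.2 and 34.5 CPM in DEN and 5.67, 4.52 and 6.19 CPM in PZH rats. Its log2 fold change was 4.83 ± 0.49 for DEN against normal (adjusted p = 0.000249, edgeR), -2.47 ± 0.40 for PZH against DEN (adjusted p = 0.0111) and 2.31 ± 0.39 for PZH against normal (adjusted p = 0.013), the last lost without N1 (0.0649) or N12 (0.0506). Genes of gut epithelium were ordered differently among the DEN rats. In M13, M17 and M24, Tff3, a peptide of goblet and other mucous cells, was at 37.4, 2.23 and 16.8 CPM, the same order as Anxa13. Slc15a1, the intestinal peptide transporter, was at 32.2, 5.44 and 36.8 CPM, and Cdx2, the intestinal homeobox factor, at 0.679, 0.0990 and 17.5 CPM, both highest in M24. Not all genes of that list were lowest in M17. In the same rats Gucy2c (11.7, 38.8 and 32.1 CPM) and Fabp2 (1.74, 4.90 and 3.40 CPM) were highest in M17. Cdhr5 (5.56, 8.41 and 27.6 CPM) was lowest in M13. The part of gut-type RNA in its level was not tested.

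Anxa3 and Anxa4 had the smallest rises of the members in DEN liver. With Anxa5 they had the highest levels of the members by FPKM, the length-scaled unit, in normal liver. Anxa3 (chr14:14364008-14426437), which binds phospholipids and is known from neutrophils and liver progenitor cells, was at 39.3, 56.6 and 64.6 CPM in normal, 188, 93.3 and 158 CPM in DEN and 41.9, 53.4 and 39.1 CPM in PZH rats. It rose by 1.46 ± 0.30 in log2 in DEN rats (adjusted p = 0.00492, edgeR) and fell by 1.68 ± 0.28 in PZH against DEN rats (adjusted p = 0.0119), a call lost without M13 (0.0517). PZH and normal rats overlapped, with a log2 fold change of -0.26 ± 0.24 (adjusted p = 0.637).

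Anxa4 (chr4:118538777-118595580), which marks bile duct and other secretory epithelia, was at 35.2, 59.7 and 41.7 CPM in normal, 152, 85.8 and 164 CPM in DEN and 57.3, 78.4 and 82.1 CPM in PZH rats. It rose in DEN rats by 1.57 ± 0.30 in log2 (adjusted p = 0.00369, edgeR). For PZH against DEN the log2 fold change was -0.86 ± 0.28 and missed the threshold (adjusted p = 0.0614), and M17 exceeded the highest PZH rat by a ratio of 1.04. Anxa4 passed in 6 of 13 alternative settings. Without M17 the value was -1.12 (adjusted p = 0.0109). It also passed with DESeq2 (-0.85, adjusted p = 0.0249) and all 9 rats in 1 fit (-0.89, 0.0493). The other passes came without TMM factors, from library totals (-1.57, 0.00875) and both limma fits on FPKM (-1.46 and -1.48, 0.0163 and 0.0209). The library totals and limma fits called 6252, 5999 and 5865 of all genes, against 2722 in the main fit. Library totals moved the median change over all genes by -0.67 in this comparison. The part of that shift in these passes was not tested. PZH and normal rats overlapped (log2 fold change 0.67 ± 0.26, adjusted p = 0.205).

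S100a11 and S100a6 had few counts in normal liver and large fitted log2 fold changes in DEN liver, whose sizes moved with single rats. S100a11 (chr2:193866951-193868502), the partner of annexin A1, had 12, 5 and 30 counts in the normal rats, or 0.937, 0.419 and 2.29 CPM, above the limit of 3 counts but imprecise. It reached 66.2, 25.6 and 59.2 CPM in DEN and 10.2, 5.50 and 5.48 CPM in PZH rats, and no groups overlapped. The log2 fold change was 5.36 ± 0.57 for DEN against normal (adjusted p = 0.000309, edgeR), -2.79 ± 0.42 for PZH against DEN (adjusted p = 0.00981) and 2.54 ± 0.55 for PZH against normal (adjusted p = 0.0333). The last was lost without N1, N3, G28 or G42 (adjusted p from 0.0569 to 0.131). Without N12, the normal rat with the most counts, the value for DEN against normal was 6.21 and that for PZH against normal 3.36. RefSeq lists 5 S100a11 pseudogenes and 2 further S100a11-like genes in the rat, and 1 pseudogene each for Anxa2 and S100a10. No row of the table carries their names, so reads shared with such copies could not be separated and these 3 levels are less certain.

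S100a6 (chr2:190007216-190008511), or calcyclin, a growth-related S100 protein that binds annexin A2 and is known from bile duct cells and fibroblasts, was the least even in DEN liver. It was at 1.41, 1.34 and 2.44 CPM in normal, 55.0, 19.2 and 124 CPM in DEN and 8.66, 9.67 and 9.90 CPM in PZH rats. M24 was 6.44 times M17, and the coefficient of variation was 80.6% in DEN against 7.0% in PZH rats. The log2 fold change was 5.26 ± 0.70 for DEN against normal (adjusted p = 0.000728, edgeR), -2.79 ± 0.58 for PZH against DEN (adjusted p = 0.0184) and 2.44 ± 0.32 for PZH against normal (adjusted p = 0.00581). The second was lost without M13, G27, G28 or G42 (adjusted p from 0.0553 to 0.0594). Without M24 it was smaller, -1.96, and the value for DEN against normal was 4.44.

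S100a10 (chr2:193892589-193901236) differs from other S100 proteins in that it does not need calcium to hold its partner, annexin A2. It was at 6.56, 4.70 and 5.65 CPM in normal, 57.2, 43.8 and 68.9 CPM in DEN and 25.8, 14.3 and 16.4 CPM in PZH rats, 3 groups that did not overlap. Its log2 fold change was 3.35 ± 0.23 for DEN against normal (adjusted p = 6.19e-05, edgeR), -1.56 ± 0.28 for PZH against DEN (adjusted p = 0.0137) and 1.75 ± 0.29 for PZH against normal (adjusted p = 0.0122). The call for PZH against DEN was lost without M13 (0.0557), and that for PZH against normal without N1 (0.0515) or N12 (0.051).

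S100a4 (chr2:189997129-189999604), a marker of fibroblasts and of some macrophages, had the lowest FPKM of the 4 S100 members in every group. It had 15, 4 and 8 counts in normal, 106, 61 and 131 in DEN and 49, 12 and 7 in PZH rats, or 1.17, 0.336 and 0.610 CPM, 4.50, 3.02 and 5.44 CPM, and 2.09, 0.835 and 0.498 CPM. It rose in DEN rats by 2.62 ± 0.49 in log2 (adjusted p = 0.00329, edgeR) and fell by 1.84 ± 0.54 in PZH against DEN rats (adjusted p = 0.0471), a call lost without M13, M24, G28 or G42 (adjusted p from 0.0987 to 0.143). PZH and normal rats overlapped, with a log2 fold change of 0.74 ± 0.67 (adjusted p = 0.633) that became -0.08 without G27. Without that rat the value for PZH against DEN was -2.66.

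Promoter sequence was available for 8 of the 10 members in the RefSeq table of the GRCr8 rat assembly, which covers 250 bases before and 50 after each gene's start. Below are the 150 bases before the start of the 4 members that carried TATAA, the core of the TATA box, on the gene's strand between 60 and 20 bases before the start. The window was chosen after the sequences were seen. Capitals mark TATAA and, where present in these bases, TGANTCA (the AP-1 site) and TGACNNNGC (the antioxidant response element), both sought on both strands. The last of these can overlap the AP-1 letters. The sequences are given 5′ to 3′ on the gene's strand, at chr8:78986102-78986251 (plus strand) for Anxa2, chr1:227303733-227303882 (minus strand) for Anxa1, chr2:178398387-178398536 (plus strand) for S100a6 and chr2:178388379-178388528 (plus strand) for S100a4.
Anxa2: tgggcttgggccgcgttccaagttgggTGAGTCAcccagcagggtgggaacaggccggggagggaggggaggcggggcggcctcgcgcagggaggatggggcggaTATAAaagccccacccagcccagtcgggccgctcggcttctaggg
Anxa1: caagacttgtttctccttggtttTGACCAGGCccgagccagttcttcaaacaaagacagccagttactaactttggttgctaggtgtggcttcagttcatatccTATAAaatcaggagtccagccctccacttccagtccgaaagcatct
S100a6: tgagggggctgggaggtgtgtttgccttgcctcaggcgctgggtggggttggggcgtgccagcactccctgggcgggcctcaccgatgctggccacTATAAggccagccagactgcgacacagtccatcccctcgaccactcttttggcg
S100a4: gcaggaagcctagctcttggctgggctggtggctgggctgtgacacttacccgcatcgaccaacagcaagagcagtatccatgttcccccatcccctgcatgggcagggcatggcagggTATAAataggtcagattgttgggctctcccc

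TATAA began 45 bases before the start in Anxa2, 46 in Anxa1, 54 in S100a6 and 31 in S100a4, and stood in that window in 4.25% of 33469 RefSeq promoters. The AP-1 letters were found in 1 member, Anxa2, 123 bases before the start, and in 7.33% of all promoters over the full window. The antioxidant response element letters were found in 1 member, Anxa1, 127 bases before the start, and in 12.1% of all. GGAATG, the letters bound by TEAD factors, was found in Anxa1 and Anxa2, 248 and 202 bases before the start and outside the bases shown, and in 14.2% of all promoters. A match of letters is a description and not evidence of binding. GC content of the 8 promoters ran from 45% in Anxa1 to 68.0% in Anxa2, with a median of 51.7% over all promoters.

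Levels of different genes can be set side by side only per transcript length, which the authors' FPKM gives. In normal liver Anxa4 led at 15.9 ± 3.61 FPKM (SD, n = 3), ahead of Anxa5 at 10.5, Anxa3 at 10.3 and S100a10 at 7.65 FPKM, with Anxa13 last at 0.522. Anxa4 did not overlap with the next gene, and further steps without overlap between neighbours came after S100a10 and after S100a6. In DEN liver S100a11 came first at 251 ± 126 FPKM, then Anxa2 at 246 ± 127, Anxa5 at 240 ± 64.2 and S100a6 at 213 ± 186 FPKM. No neighbours in that order were apart, so the order within DEN liver was not resolved by 3 rats. In PZH liver Anxa5 led at 53.8 ± 24.5 FPKM, with Anxa4, S100a10 and Anxa2 between 29.3 and 30.2, and neighbours were apart only after S100a6 and after Anxa3. The 10 members together made up 0.0105 to 0.0128% of the summed FPKM in normal, 0.131 to 0.348% in DEN and 0.0359 to 0.0457% in PZH rats.

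**Figure D3:**
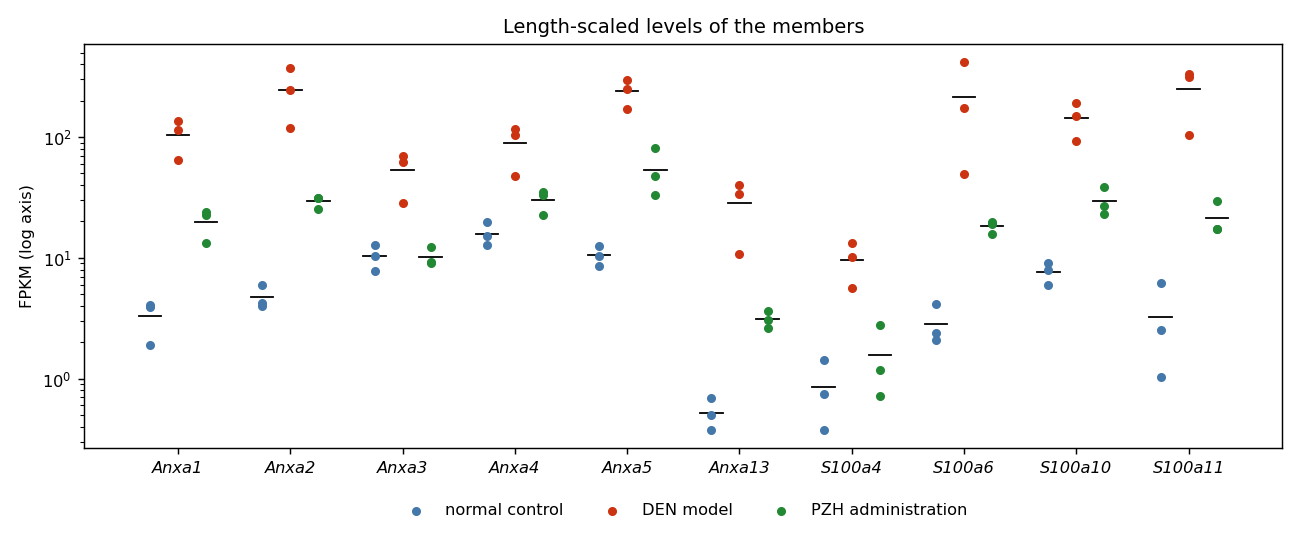
FPKM of each member on a logarithmic vertical axis, with 1 point per rat, a line at the group mean and colours for the 3 groups. In normal liver Anxa4 (15.9 FPKM) is the highest, and in DEN liver S100a11, Anxa2, Anxa5 and S100a6 reach means between 213 and 251 FPKM with points that overlap.

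The partners Anxa2 and S100a10 did not change in equal measure. Anxa2 FPKM divided by S100a10 FPKM was 0.436, 0.699 and 0.760 in normal, 1.65, 1.28 and 1.96 in DEN and 0.657, 1.34 and 1.16 in PZH rats. DEN and normal rats did not overlap in this ratio, while PZH rats overlapped with both. FPKM of S100a11 over that of S100a10 was 0.276, 0.172 and 0.782 in normal, 2.23, 1.13 and 1.66 in DEN and 0.763, 0.740 and 0.646 in PZH rats. Neither ratio was tested.

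Within the DEN group M17 was the lowest rat for all 10 members, M24 the highest for 6 and M13 for 4. Several marker lists, but not all, moved with the same rats. M17 had the highest summed hepatocyte level (41135 CPM, against 25688 in M13 and 18022 in M24) and the lowest sum of 12 bile duct and ductular markers such as Krt19, Epcam and Sox9 (378, against 877 and 957 CPM). It was also lowest for 12 stellate cell and myofibroblast markers (1163, against 2064 and 3094 CPM). The endothelial sum did not follow that order, at 579, 561 and 309 CPM in M13, M17 and M24.

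The same lists moved between the groups. Beside them, 25.3% of all genes rose and 20.5% fell in DEN, and 8.72% rose and 10.3% fell in PZH against DEN rats. All 12 ductular markers rose in DEN against normal rats and 11 of 12 fell in PZH against DEN rats, with sums of 33.9 to 46.2, 378 to 957 and 119 to 175 CPM in normal, DEN and PZH rats. Of the 12 stellate and myofibroblast markers 10 rose and 8 fell, with sums of 268 to 370, 1163 to 3094 and 636 to 739 CPM. Of 12 neutrophil markers 6 had enough counts, and all 6 rose in DEN and fell in PZH rats. Sums over the whole list were 14.1 to 19.9, 87.9 to 139.8 and 20.8 to 30.7 CPM. Lcn2 was the largest part in DEN rats, at 86.9, 55.3 and 71.5 CPM in M13, M17 and M24. Mpo, Elane, Camp and Ngp did not exceed 2.29 CPM in any DEN rat. At 0 in all normal rats were Mpo, Elane, Ly6g6e and Camp. Of 11 macrophage markers 3 rose and 4 fell in DEN rats and 5 fell in PZH against DEN rats, with overlapping sums of 674 to 1197, 853 to 1232 and 392 to 859 CPM. Of 9 lymphocyte markers tested 4 rose, and 1 of 7 fell in PZH rats, with sums of 27.6 to 50.9, 82.5 to 127 and 39.3 to 47.4 CPM. Of 11 endothelial markers 4 rose and 3 fell in DEN rats, and 1 rose and 3 fell in PZH against DEN rats, with overlapping sums of 412 to 525, 309 to 579 and 370 to 509 CPM. Of 7 gut markers tested 5 rose and 4 fell in PZH rats, with sums of 193 to 215, 75.9 to 600 and 34.4 to 141 CPM. In normal rats those gut sums were almost wholly Cdh17, a cadherin at 205, 189 and 211 CPM there. They are thus no measure of gut-type RNA in normal liver, where Cdx1, Lgals4, Slc15a1, Gucy2c and Cdhr5 had 0 counts. Cdh17 was at 13.4, 10.9 and 272 CPM in DEN rats and was not called in either comparison. Of the hepatocyte markers 8 fell in DEN rats and 7 rose in PZH against DEN rats. The part of cell composition in the levels of the annexins and S100 genes was not tested.

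**Figure D4:**
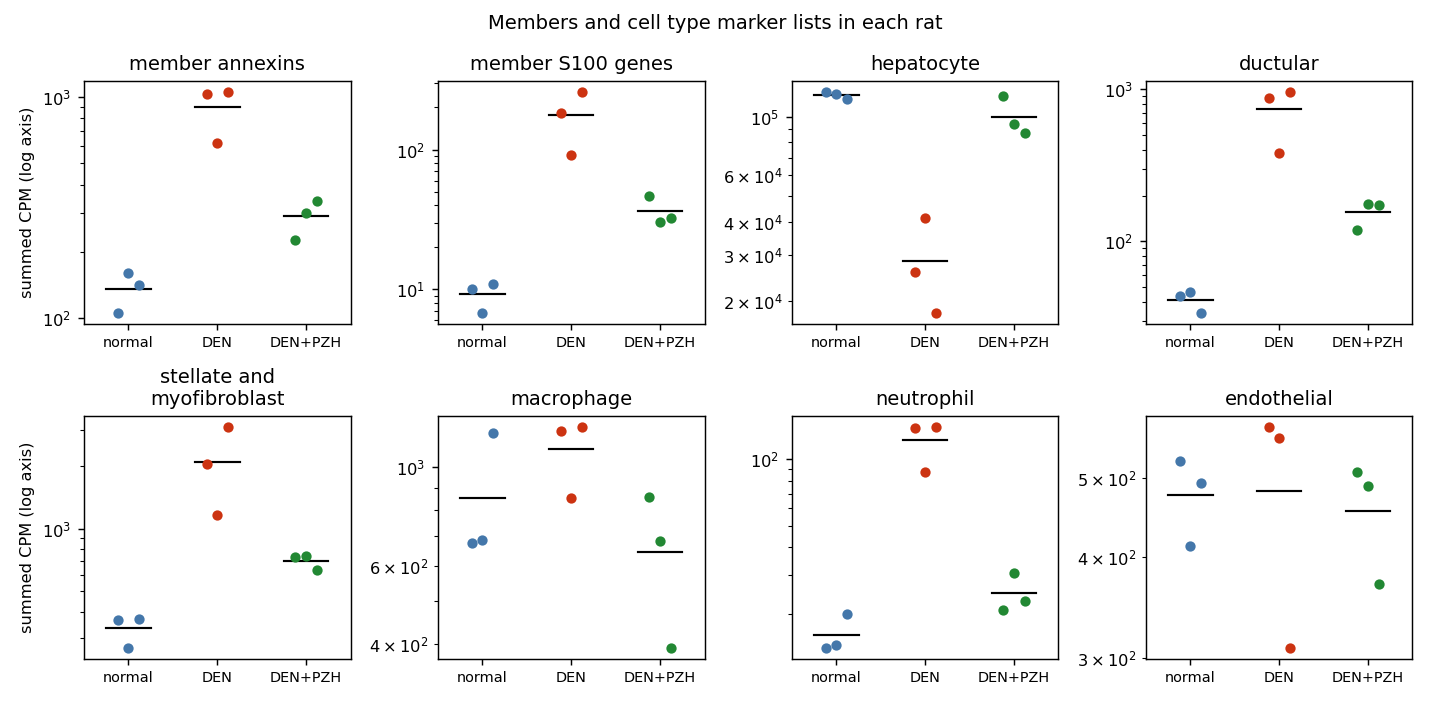
Summed CPM of the 6 member annexins, the 4 member S100 genes and 6 cell type marker lists on logarithmic vertical axes, with 1 point per rat and a line at the group mean. The 3 DEN rats lie above the others for the members and for the ductular, stellate and neutrophil lists and below them for hepatocyte markers, and macrophage and endothelial sums overlap between the groups.

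Other genes of both families were counted too, where 25.3% of all genes rose in DEN and 10.3% fell in PZH against DEN rats. The table held 6 further annexins, of which 4 could be tested: 2 rose in DEN and fell in PZH against DEN rats. These were Anxa7, a vesicle-fusing annexin (log2 fold change 2.89, adjusted p = 7.1e-05, then -1.12, adjusted p = 0.016, by edgeR), and Anxa8, known from squamous and other stratified epithelia (3.39, adjusted p = 0.014, then -2.27, adjusted p = 0.022). Anxa6, the large annexin with a doubled core, and Anxa11 were not called, with log2 fold changes of 0.27 (adjusted p = 0.33) and 0.25 (adjusted p = 0.25) for DEN against normal. Of 13 further S100 genes 6 could be tested, and 4 rose in DEN and fell in PZH against DEN rats. They were S100a8 and S100a9, the subunits of calprotectin in neutrophils and monocytes (log2 fold change 4.89 and 2.97, then -2.13 and -2.71), S100b, best known from glia (4.22, then -2.12), and S100a16, which is widely expressed (1.22, then -0.76, adjusted p = 0.0495). In N1, N3 and N12, S100a8 had 3, 3 and 0 counts and S100b 6, 0 and 3, so the sizes of their rises are imprecise. S100a1 (0.59, adjusted p = 0.34) and S100a13 (-0.18, adjusted p = 0.79) were not called in DEN rats.

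Most rat S100 genes lie in a row on chromosome 2, and their neighbours did not all take part. By the deposited positions S100a4 and S100a6 are 7.61 kb apart with S100a5 between them, and S100a5 had at most 2 counts in any rat. S100a3, just before S100a4, had at most 4 counts. S100a11 and S100a10 are 24.1 kb apart, about 3767 kb past S100a9. S100a7a, S100vp and S100a7l2 had 0 counts in all 9 rats, which at 3 counts a library allows up to 0.125 to 0.252 CPM.

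**Figure D5:**
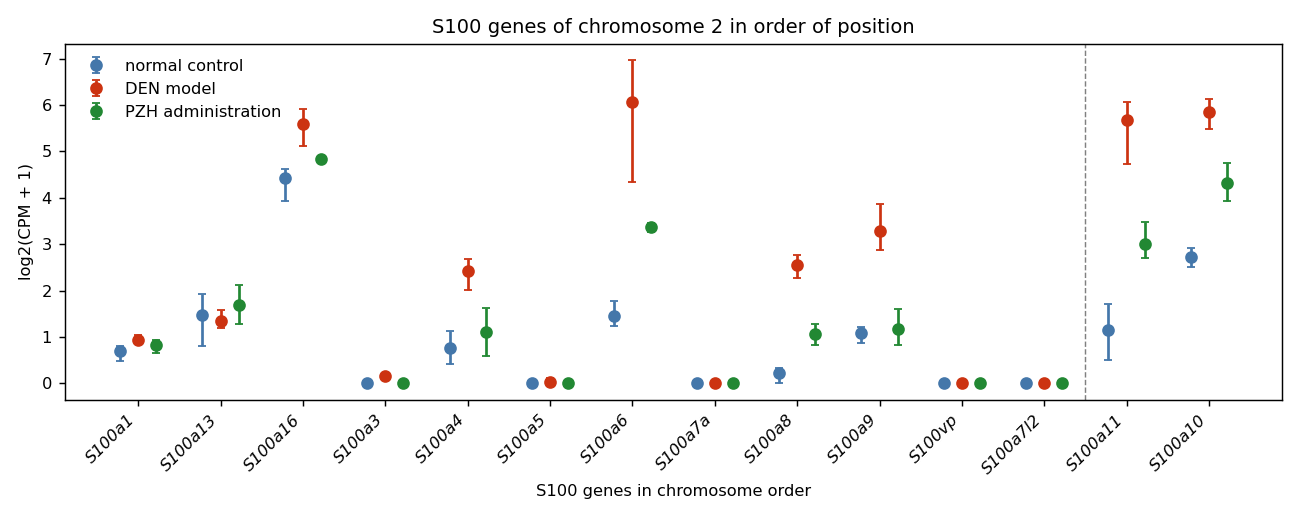
Mean log2(CPM + 1) of the 14 S100 genes of chromosome 2 in order of position, with bars from the lowest to the highest of 3 rats and colours for the groups; the dashed line marks the gap before S100a11 and S100a10. S100a16, S100a4, S100a6, S100a8, S100a9, S100a11 and S100a10 are higher in DEN than in normal rats, while S100a3, S100a5 and S100a7a, which lie among them or next to them, are at or near 0.

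Genes of processes that the members are known to act in were counted from lists. The shares over all genes were 25.3% higher and 20.5% lower in DEN, and 8.72% higher and 10.3% lower in PZH against DEN rats. In plasminogen activation, which annexin A2 with S100A10 promotes at the cell surface, 5 of 8 genes rose and 2 fell in DEN rats. Plat, the tissue activator, had a log2 fold change of 4.05 (adjusted p = 0.00064, edgeR) and then -2.48 for PZH against DEN (adjusted p = 0.015). Plg, the plasminogen that hepatocytes secrete, went the other way: it was at 4495, 4004 and 4438 CPM in normal, 931, 1627 and 634 CPM in DEN and 4026, 2908 and 2597 CPM in PZH rats (log2 fold change -2.00, adjusted p = 0.0055, then 1.60, adjusted p = 0.033). In PZH against DEN rats 4 of the 8 fell and Plg alone of the 8 was called higher. Serpinf2 also had a higher mean in PZH than in DEN rats, 458 against 190 CPM. Its groups overlapped and it was not called.

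Of 14 tested genes for binding partners of annexins and S100 proteins, 9 rose in DEN and 8 fell in PZH against DEN rats. Ahnak, the giant scaffold bound by annexin A2 with S100A10, had log2 fold changes of 3.29 (adjusted p = 0.00018, edgeR) and -1.33 (adjusted p = 0.029), and Ezr, the membrane to actin linker ezrin, 3.58 and -1.78. Myh9, the non-muscle myosin that S100A4 binds, and Cacybp, the calcyclin-binding protein, were not called in DEN rats (0.81, adjusted p = 0.052, and -0.46, adjusted p = 0.088). Of 3 tested S100 receptors, Tlr4 (1.58, adjusted p = 0.0023, then -0.96, adjusted p = 0.02) and Mcam (2.65, adjusted p = 0.00044, then -1.82, adjusted p = 0.017) rose and fell, and Bsg was not called in DEN rats (0.21, adjusted p = 0.56). Ager, the receptor RAGE, had at most 6 counts in a rat and was not tested.

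The genes most like each member were those with the smallest root mean square difference in centred log2(CPM + 1) over the 9 rats, given as a description. Only genes with an official symbol were named as nearest. Places of members were counted among all 14254 genes, so unnamed genes can lie nearer than those named. For Anxa2 these included Fblim1 (0.138) and Plod2 (0.240), and the nearest other member was S100a6 (0.356, in place 15). For S100a6 they were Olr1 (0.225), Cldn7 (0.262) and Fblim1 (0.348), with Anxa2 in place 5, and for S100a11 Loxl1 (0.375), Fblim1 (0.409) and Adamts2 (0.411), with Anxa2 in place 4. Anxa1 was nearest to B3galnt1 (0.216) and Anxa5 to Sctr (0.211), the secretin receptor of bile duct cells. Anxa13 was nearest to Olfml2b (0.248), S100a10 to Aoc1 (0.221) and S100a4 to Sparc (0.161), a matrix protein of fibroblasts. The added 1 shrinks differences at low levels, as for S100a4, with means of 0.706, 4.32 and 1.14 CPM in normal, DEN and PZH rats. The nearest other member stood farthest down the order of genes for Anxa4, S100a4 and Anxa3: Anxa4 was nearest to Samd9 (0.099) with Anxa3 in place 1895, S100a4 had Anxa3 in place 1198, and Anxa3 was nearest to Sytl2 (0.187) with Anxa4 in place 720.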

How the data were processed

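Liver RNA of 9 rats was sequenced, 3 per group. The authors deposited a table of gene counts and FPKM per rat. Per the labels' processing notes fastp, HISAT2 2.1.0, StringTie 1.3.3b and edgeR 3.30.3 were named by the submitters; the genome build was not given in the sources used here. Counts are whole reads per gene, and FPKM values were scaled by the authors for length and depth. The table also holds the authors' group means, fold changes, P and Q values, which were not used. Strand use in counting was not stated.

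Counts were tested in R 4.3.3 with edgeR 4.0.16 (filterByExpr, TMM, quasi-likelihood F test, Benjamini-Hochberg over all genes tested), separately for each pair of groups with 3 against 3 rats and no covariates. A standard error is the absolute log2 fold change divided by the square root of F. The FPKM fits used limma 3.58.1 on log2(FPKM + 1) or + 0.1, and DESeq2 1.42.0 was an alternative. On simulated counts with 200 changed genes at a log2 change of 3, edgeR recovered 197 with 13 false calls among 12663 genes. Those counts were drawn from the normal control means with a single fixed spread and as many genes raised as lowered. In the data 45.8% of genes were called in DEN against normal, and the spread differed between genes and groups. The simulation checks the code and does not measure how many calls here are right. Coordinates in sequence windows are from RefSeq GRCr8, and those of genes from the deposited table. The 10 members and all gene lists were chosen with earlier results of these data known, and every member was named. With 3 rats a side an exact permutation test of 1 gene cannot go below p = 0.1, so none was used. Intervals were not computed from counts, and counting limits cover counting error only. Values of some single genes outside the 10 members are not reported here.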

Additional observations from a re-analysis of the deposited data

How the results depend on the processing

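In DEN against normal rats all 10 members passed under DESeq2, library totals, no filter, all 9 rats in 1 fit, both limma fits and every fit without 1 rat, and 8 passed with at least 10 counts in every rat (S100a4 and S100a11 then went untested) or by the study's rule. In PZH against DEN rats the count was 9, with 10 under DESeq2, library totals, 1 fit of all rats, both limma fits or without M17, 8 with at least 10 counts, and 3 by the study's rule. Leaving out 1 rat gave 4 to 10, with 4 without M13. In PZH against normal rats it was 7, 5 by the study's rule and 3 to 7 on leaving out 1 rat, with 3 without N1. The direction of every member held under every alternative run, except that S100a4 in PZH against normal rats went from 0.74 to -0.08 without G27 and lay between -0.08 and 1.27 on leaving out 1 rat. Over all members and alternatives, 128 of 128 values kept their direction and side of the threshold in DEN against normal, 110 of 129 in PZH against DEN and 118 of 128 in PZH against normal rats. The causes of these shifts were not tested. The number of all genes called also depended on the setting: 6529 in DEN against normal and 9084 with library totals, 2722 in PZH against DEN and 6252 with library totals or 271 without M13, and 696 in PZH against normal and 1326 with DESeq2 or 207 without N1. As shares, DEN against normal gave 45.8% in the main fit, 63.7% with library totals and 64.1% and 63.3% with limma. In PZH against DEN rats the limma fits called 5999 and 5865 of all genes. Library totals and FPKM are without TMM factors. No paired analysis was possible because the groups share no replicate numbers. Counts below 20 per rat, as for S100a4 in 5 of the 9 rats, limit how small a change could be seen.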
